A study of Mus musculus with 66 samples.

Results

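The genes described here encode the large-conductance (BK) and small-conductance (SK) calcium-activated potassium channels of mouse medial prefrontal cortex. The members were all probe sets annotated to Kcnma1, Kcnmb4, Kcnn1, Kcnn2 and Kcnn3, 5 of 18193 genes named on the array, which gave 10 of its 45037 probe sets. Kcnma1 had 5 probe sets, Kcnn1 had 2, and the other genes had 1 each. A probe set was tested when its mean over the 66 arrays reached the 40th percentile (log2 level 5.10), and 9 of the 10 passed. Expression was measured in male mice aged 10 to 12 weeks, with RNA of 4 to 5 animals pooled on each array. The saline groups held 3 arrays of C57BL/6J, 3 of DBA/2J and 1 from each of 27 BXD strains, which are recombinant inbred lines derived from those progenitors. The ethanol groups had the same make-up and received 1.8 g/kg by intraperitoneal injection. Mice of all 6 groups, saline included, also went through restraint (15 minutes) and a light-dark box (10 minutes), and tissue was taken 4 hours after the injection, so no group was free of handling stress. Each BXD strain had 1 pool per treatment, so a strain's response in the panel has no replicate of its own.

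BK channels open on depolarisation and a rise of intracellular calcium, and they shape spike repolarisation and transmitter release. Kcnma1 encodes their pore-forming alpha subunit, and Kcnmb4 encodes beta4, the auxiliary subunit most typical of neurons, which alters gating and toxin sensitivity. SK channels are opened by calcium alone through bound calmodulin and carry part of the current that follows bursts of spikes; Kcnn1, Kcnn2 and Kcnn3 encode the subunits SK1, SK2 and SK3. Both channel types are known targets or mediators of ethanol action in neurons, and beta4 is known to modify the acute tolerance of BK channels to ethanol. The study's labels set the panel up to relate acute ethanol and strain background to expression in this region. Here the comparisons were ethanol against saline within each line, the progenitors against each other, and the strains of the panel against each other.

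The deposited values were comparable in overall scale, with array medians from 5.67 to 5.77 and array standard deviations (SD) from 2.06 to 2.17. Markers of excitatory neurons were well detected: all 6 tested, such as Slc17a7 and Camk2a, had mean log2 levels from 7.81 to 11.9. These levels do not test which region was dissected, and the 6 tested striatal markers had means from 5.43 to 9.42. Oligodendrocyte markers differed between the saline progenitors and are given beside the result they accompany. In tissue arrays such as these, fewer cells of a type and less RNA per cell cannot be told apart. The labels do not tie arrays to processing batches, and p-values among the progenitors measure the spread between pools of animals.

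Kcnmb4 was measured by probe set 1449471_at and was steady across all 6 groups. Its log2 level was 10.23 ± 0.15 (SD, n = 3) in saline C57BL/6J, 10.29 ± 0.11 (n = 3) in saline DBA/2J and 10.17 ± 0.12 (n = 27) in the saline BXD arrays. After ethanol it was 10.13 ± 0.03 (n = 3) in C57BL/6J, 10.27 ± 0.08 (n = 3) in DBA/2J and 10.15 ± 0.13 (n = 27) in the BXD arrays. The group means thus ran from ethanol C57BL/6J at the bottom to saline DBA/2J at the top, and neighbours in that order lay within each other's spread.

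Kcnma1 was read by probe sets of very different spread. The probe set 1425987_a_at had a mean log2 level of 9.68 with an SD of 0.20 over the 66 arrays. The probe set 1424848_at had a mean of 8.53 with an SD of 0.42, and its saline BXD arrays alone ran from 7.60 to 9.56. The means of 1428948_at and 1440728_at were 6.68 and 5.25, with SDs of 0.28 and 0.33. The fifth, 1457018_at, averaged 4.36 and fell below the filter; its values are given only where stated, from a fit with no filter. Levels of different probe sets are not compared with each other, because each has its own hybridisation strength.

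Of the SK genes, Kcnn2 had the narrowest spread of all members. Its level by 1448927_at was 8.35 ± 0.05 in saline C57BL/6J, 8.30 ± 0.07 in saline DBA/2J (n = 3 each) and 8.24 ± 0.10 in the saline BXD arrays (n = 27). After ethanol the same groups were at 8.27 ± 0.08, 8.36 ± 0.11 and 8.26 ± 0.13. The order of the 6 group means placed ethanol DBA/2J first and saline BXD last, and the ranges of all groups overlapped. Kcnn3, by 1421632_at, was dim at a mean of 5.46, and 45.8% of probe sets had a lower mean. Its saline DBA/2J arrays were the most scattered of any group, at 6.17, 5.60 and 5.26, against 5.44, 5.32 and 5.31 in saline C57BL/6J. The highest of those DBA/2J arrays stood above all other Kcnn3 values and the lowest stood below every saline C57BL/6J array, so the groups overlapped.

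Kcnn1, the gene of SK1, was read by 1449536_at, with a mean level of 6.30, and by 1419617_at, with a mean of 5.90. By 1449536_at alone it was the member called between the saline progenitors, in a call that depended on single arrays, as given below. For that reason the 250 bases before each annotated Kcnn1 start are shown, from RefSeq on GRCm38.p6, chromosome 8, minus strand, written 5′ to 3′. The reference is C57BL/6J sequence; sequence of DBA/2J was not used here. Capitals mark matches to the GC box (GGGCGG), the CCAAT box (CCAAT) and the TGACG core of the cAMP response element, each searched on both strands.
Kcnn1 upstream start, chr8:70863259-70863508: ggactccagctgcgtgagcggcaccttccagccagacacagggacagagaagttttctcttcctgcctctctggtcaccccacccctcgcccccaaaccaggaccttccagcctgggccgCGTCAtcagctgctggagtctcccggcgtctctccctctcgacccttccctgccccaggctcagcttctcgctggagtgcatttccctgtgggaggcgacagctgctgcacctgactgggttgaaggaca
Kcnn1 downstream start, chr8:70857009-70857258: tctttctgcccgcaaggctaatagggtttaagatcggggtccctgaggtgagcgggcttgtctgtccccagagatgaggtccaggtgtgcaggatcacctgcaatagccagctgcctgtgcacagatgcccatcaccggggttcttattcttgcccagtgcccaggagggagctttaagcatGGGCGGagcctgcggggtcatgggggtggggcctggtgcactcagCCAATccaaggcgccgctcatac
The upstream window held 1 TGACG core, read as CGTCA on the printed strand, and neither of the other motifs. The downstream window held 1 GC box and 1 CCAAT box. Such matches are common: among 32851 RefSeq promoter windows of the same length, 32.7% held a GC box, 33.8% a CCAAT box and 17.8% a TGACG core. The complete element TGACGTCA was in neither window and in 1.55% of all windows. Both windows were richer in G and C than the median window of 52.4%, at 63.6% and 60.4%, and held 10 and 8 CpG dinucleotides against a median of 6.

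**Figure D1:**
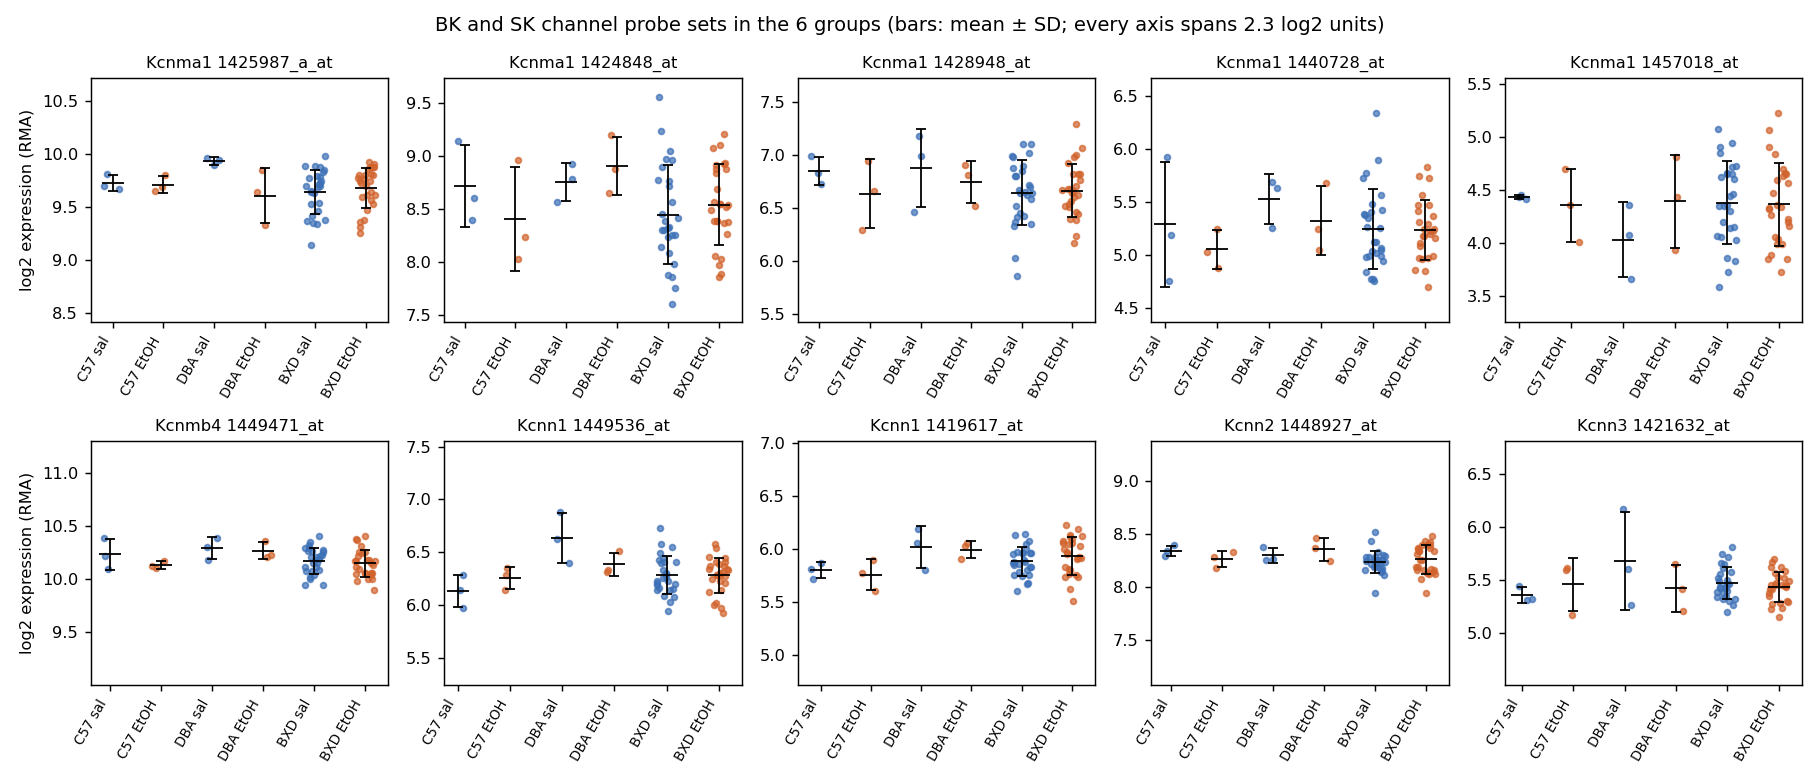
Log2 expression (y axis, RMA values) of the 10 member probe sets in the 6 groups, 1 point per array, with bars for the mean and SD (n = 3 for each progenitor group, n = 27 for each BXD group). Kcnmb4 and Kcnn2 form tight bands, Kcnma1 1424848_at spreads from 7.60 to 9.56 in the saline BXD arrays, and the saline DBA/2J arrays of Kcnn1 1449536_at lie above those of saline C57BL/6J.

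Ethanol left no detectable mark on any of these transcripts across the BXD panel. None of the 9 tested probe sets passed an adjusted p of 0.05 in limma with strain as a block, against 0.0074% of all 27022 tested probe sets (2 of them). At an unadjusted p below 0.05 the count was again 0 of 9, against 4.17% of all probe sets. The smallest adjusted p of a member was 1.00, and the paired differences ran from -0.04 to 0.09 on the log2 scale with standard errors (SE) of 0.03 to 0.12. In simulated data, 99% of probe sets changed by 0.5 on the log2 scale were recovered in the BXD comparison. That share is an average over randomly picked probe sets, many of them changed at once, which eases the adjusted threshold. It is therefore not the share for a single member, and a change of 0.5 in a member with an SE of 0.12 could be missed.

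The BK auxiliary subunit gene Kcnmb4 stood at 0.98 times its saline level after ethanol (95% interval 0.94 to 1.03) and was higher in 11 of 27 strains. The strain differences of Kcnmb4 ran from -0.35 in BXD02 to 0.28 in BXD19. For the pore gene Kcnma1 the ratio was 1.02 (0.95 to 1.11) by 1425987_a_at, with 13 of 27 strains higher. Kcnma1 by 1424848_at gave a ratio of 1.07 with the widest interval, 0.90 to 1.26. Single strains moved far in opposite directions by that probe set, from -1.27 in BXD33 to 1.33 in BXD02, and 16 of 27 were higher. The remaining tested Kcnma1 probe sets gave 1.01 (0.93 to 1.10) for 1428948_at and 0.99 (0.87 to 1.13) for 1440728_at, and the dim 1457018_at gave 0.99 (0.89 to 1.10). Every interval of Kcnma1 included no change.

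Every SK interval also included no change. Kcnn2 after ethanol was 1.02 times saline (95% interval 0.97 to 1.07), with 15 of 27 strains higher. Kcnn3 was at 0.98 (0.92 to 1.04), with 12 of 27 strains higher. Kcnn1 was at 1.00 (0.95 to 1.05) by 1449536_at and at 1.04 (0.98 to 1.09) by 1419617_at, with 12 and 16 of 27 strains higher. The strains split close to evenly for each SK gene, and the largest single shift among them was -0.43, for Kcnn3 in BXD15.

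**Figure D2:**
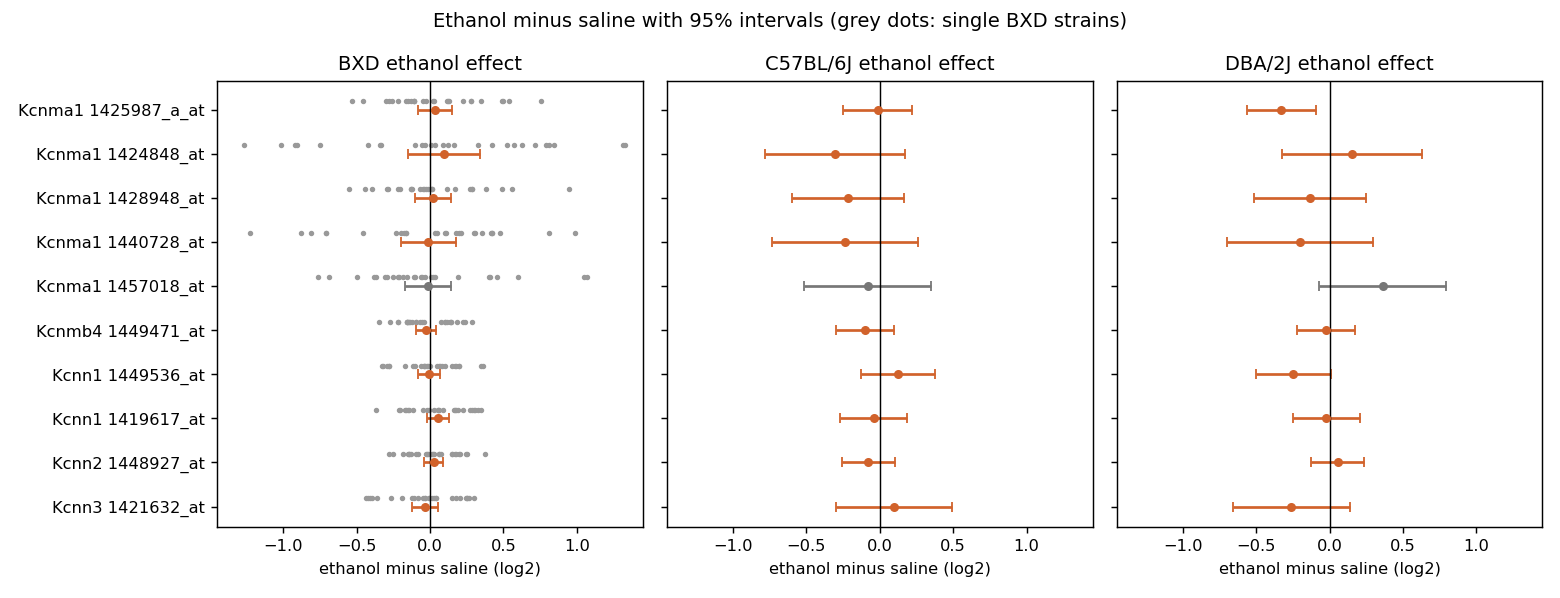
Ethanol minus saline (x axis, log2) for each member probe set in the BXD panel, C57BL/6J and DBA/2J, as limma's estimate with its 95% interval; grey dots are single BXD strains and grey bars mark the dim Kcnma1 probe set. All BXD intervals include 0, and in DBA/2J the interval of Kcnma1 1425987_a_at lies below 0.

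The progenitors gave a similar count at lower precision. In C57BL/6J 0 of 9 probe sets passed in limma (0.0074% of all) and 0 were below an unadjusted p of 0.05 (4.82% of all), and no member's ethanol and saline arrays were fully separated, against 9.02% of all probe sets. In DBA/2J 0 of 9 passed (0% of all), and 1 of 9 was below an unadjusted p of 0.05, against 11.9% of all. For the mean of both progenitors 0 of 9 passed (0.0185% of all), and 1 was below the unadjusted threshold (9.28% of all). All 9 mean differences were negative, from -0.01 for Kcnn2 to -0.22 for Kcnma1 1440728_at, where 45.2% of all probe sets were positive. Several of these probe sets share a gene, and in the BXD panel 5 of the 9 were positive. At 3 arrays a group, 69% (C57BL/6J) and 65% (DBA/2J) of simulated differences of 0.5 were recovered, against 99% in the panel. These too are averages over many probe sets changed at once and can overstate what would be detected for a single member.

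The member of DBA/2J below the unadjusted threshold was Kcnma1 by 1425987_a_at. Its saline DBA/2J arrays read 9.90, 9.96 and 9.95, and its ethanol DBA/2J arrays read 9.65, 9.85 and 9.33. Every ethanol array was below every saline array, a separation that 18% of all probe sets showed in DBA/2J. The difference was -0.33 (SE 0.11, limma adjusted p = 0.296), or 0.80 times saline. The other tested Kcnma1 probe sets did not share 1 direction in DBA/2J, with differences of 0.15 for 1424848_at, -0.13 for 1428948_at and -0.20 for 1440728_at. In C57BL/6J 1425987_a_at differed by -0.02 (SE 0.11).

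The test of whether the progenitors responded differently passed in limma for 0 of 9 members (0% of all), with 1 of 9 below an unadjusted p of 0.05 (7.37% of all). The lowest member p in it belonged to Kcnn1 1449536_at, whose ethanol effect was 0.13 in C57BL/6J and -0.25 in DBA/2J. Their difference was -0.37 (SE 0.17, limma adjusted p = 0.672). The second Kcnn1 probe set gave 0.02 (SE 0.15) for the same difference. For Kcnma1 1425987_a_at it was -0.31 (SE 0.16, adjusted p = 0.682), and for Kcnmb4 and Kcnn2 it was 0.08 and 0.14.

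Proteins that couple to these channels were taken from a list of 38 genes, of which 30 were on the array by symbol and 27 were tested. It covers BK auxiliary subunits, related potassium channels, calmodulin-bound kinase and phosphatase subunits, calcium channels, calcium release channels and anchoring proteins. None of the 27 passed in limma in the BXD panel, in C57BL/6J, in DBA/2J or in their mean, and 0, 0, 3 and 3 of them were below an unadjusted p of 0.05. The median BXD ethanol difference was 0.00 for the list, -0.01 for all tested probe sets and 0.02 for the 9 members. The auxiliary subunit genes Kcnmb1, Lrrc26 and Lrrc52 were on the array but too dim to test.

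Between the saline-treated progenitors, Kcnn1 was higher in DBA/2J. The 1449536_at arrays of saline C57BL/6J read 6.28, 6.15 and 5.98, and those of saline DBA/2J read 6.88, 6.62 and 6.40. The lowest DBA/2J array was above the highest C57BL/6J array. The means were 6.14 ± 0.15 and 6.63 ± 0.24 (SD, n = 3 each), a difference of 0.50 (SE 0.12, limma adjusted p = 0.0150). DBA/2J thus had 1.41 times the C57BL/6J level (95% interval 1.18 to 1.68). The probes were not compared with DBA/2J sequence here, so this is a ratio of hybridisation signals. Kcnn1 1449536_at was the 1 of 9 member probe sets called, where 9.07% of all probe sets were called and 3.51% were called higher in DBA/2J, so the members were called about as often as any probe set. When every array was centred on its median, 27.3% of all calls were higher in DBA/2J in place of 38.7%, and Kcnn1 remained among them. Of the 9 members 2 had separated groups in this comparison, against 28.9% of all probe sets, the other being Kcnma1 1425987_a_at (0.21, SE 0.11, adjusted p = 0.275).

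The Kcnn1 call depended on single arrays. Without saline C57BL/6J replicate 3 the difference was 0.42 (limma adjusted p = 0.0739), and without saline DBA/2J replicate 1 it was 0.38 (adjusted p = 0.0754). That DBA/2J array also had the smallest array SD of the 12 progenitor arrays, 2.07, and the saline DBA/2J array SDs of 2.07 to 2.13 lay below the 2.14 to 2.15 of saline C57BL/6J. With array SD as a covariate, an alternative added after the data were seen, the difference was 0.42 (adjusted p = 0.0820). Over 21 alternatives the direction was the same in all and 18 kept the call, with adjusted p from 0.00196 to 0.0820. Several of the 21 cannot change the saline difference itself, such as leaving out an ethanol array, changing the prior or adding the replicate block. The direction was fixed in those, so the count of 18 overstates how steady the call was. The part of array SD in the result was otherwise not tested.

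The second Kcnn1 probe set pointed the same way at a smaller size. By 1419617_at saline C57BL/6J read 5.81, 5.71 and 5.86, and saline DBA/2J read 6.05, 5.80 and 6.19. The lowest DBA/2J array fell inside the C57BL/6J range. The difference was 0.22 (SE 0.11, limma adjusted p = 0.240), or 1.16-fold (95% interval 0.99 to 1.36). After ethanol it was this probe set that separated the progenitors. Its ethanol C57BL/6J read 5.60, 5.89 and 5.77 and ethanol DBA/2J read 6.02, 5.90 and 6.06, which did not overlap, for a difference of 0.24 (SE 0.11, adjusted p = 0.253). By 1449536_at ethanol C57BL/6J read 6.29, 6.35 and 6.15 and ethanol DBA/2J read 6.32, 6.34 and 6.51, which overlapped, for a difference of 0.13 (SE 0.12, adjusted p = 0.645). All 4 Kcnn1 differences between the progenitors were positive, and 1 of the 4 passed.

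No other SK or BK gene was called between the progenitors. After saline the difference was 0.06 (SE 0.09) for Kcnmb4, -0.04 (SE 0.08) for Kcnn2 and 0.32 (SE 0.19, limma adjusted p = 0.324) for Kcnn3. The 95% interval of Kcnn2 allowed DBA/2J to C57BL/6J ratios of 0.86 to 1.10, and that of Kcnmb4 allowed 0.91 to 1.19. After ethanol 0 of 9 members passed in limma, against 6.72% of all probe sets, and 2 were below an unadjusted p of 0.05, against 18.1%. Groups were separated for 2 of 9 members after ethanol, Kcnmb4 and Kcnn1 1419617_at, against 23.1% of all. Kcnma1 1424848_at had the largest difference after ethanol, 0.50 (SE 0.22, adjusted p = 0.249), with overlapping arrays. Without ethanol C57BL/6J replicate 1, the highest of its group, that difference was 0.78 and passed (adjusted p = 0.0299).

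The oligodendrocyte markers moved with the saline progenitor comparison. All 7 tested markers were lower in saline DBA/2J, among them Mal (-1.36), Mobp (-0.94), Cldn11 (-0.73) and Mbp (-0.71), with a median of -0.73. The mean level of the list ran from 9.21 to 9.27 in saline C57BL/6J and from 8.27 to 8.60 in saline DBA/2J. After ethanol 4 of 7 were lower, with all 7 differences negative. Of the 7 microglia markers 2 were lower in saline DBA/2J, C1qb (-0.98) and Tyrobp (-0.45), with a list median of -0.07. No marker of the other 8 lists was called after saline, and their medians ran from -0.14 for the cortical layer list to 0.14 for the meningeal and fibroblast list. Within the BXD panel, saline Kcnn1 1449536_at had r = 0.06 and rho = 0.11 with the oligodendrocyte list mean (permutation p = 0.761 and 0.573, adjusted over 110 relations p = 0.920 and 0.798, n = 27). In the ethanol BXD arrays they were r = -0.22 and rho = -0.14 (permutation p = 0.265 and 0.478, adjusted p = 0.762 and 0.751). The part of oligodendrocyte content in the progenitor difference of Kcnn1 was not tested.

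Among the channel partners 1 of 27 was higher in saline DBA/2J and none was lower, where 8.78% of all tested genes were called in either direction by their brightest probe set. It was Cacna1g, which encodes a low-voltage-activated (T-type) calcium channel, with a difference of 0.43 (SE 0.11, limma adjusted p = 0.0268). After ethanol 1 of 27 was called, against 6.17% of all tested genes. It was Csnk2a2, a catalytic subunit of casein kinase II, the kinase known to phosphorylate SK-bound calmodulin, and it was higher in DBA/2J (0.45, SE 0.12, limma adjusted p = 0.0397). Cacna1g after ethanol differed by 0.25 (adjusted p = 0.249).

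Within the BXD panel the saline and ethanol arrays of a strain serve as a repeat of its level. The strain effect is given as a moderated F test and as the intraclass correlation of those arrays, which is near 1 when strains differ stably and near 0 when they do not. None of the 9 members passed in limma, against 17.5% of all probe sets, and 2 of 9 were below an unadjusted p of 0.05, against 29.9%. The median intraclass correlation was 0.04 for the 9 members and 0.16 for all probe sets. Kcnn1 1449536_at had the highest of the members, 0.39 (limma adjusted p = 0.0594), followed by Kcnma1 1428948_at at 0.30 (adjusted p = 0.0851) and Kcnn1 1419617_at at 0.22 (adjusted p = 0.250). Kcnmb4 and Kcnn2 were at 0.06 and 0.04. Kcnn3 (-0.22) and the Kcnma1 probe sets 1424848_at (-0.30), 1425987_a_at (-0.22) and 1440728_at (-0.24) were negative, so the arrays of a strain were no more alike than those of different strains.

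Strain means of Kcnn1 1449536_at ran from 6.03 in BXD20 to 6.59 in BXD38, with a median of 6.25. Each of these averages a saline and an ethanol array. By treatment, single saline BXD arrays ran from 5.94 to 6.73, past the saline progenitor means of 6.14 and 6.63 at both ends. Single ethanol BXD arrays ran from 5.92 to 6.58, also past the ethanol progenitor means of 6.26 and 6.39. Single arrays scatter more than means of 3, so the spans are not directly comparable. BXD38 read 6.73 after saline and 6.45 after ethanol, and BXD34 read 6.50 and 6.58. BXD20 read 6.04 and 6.02 and BXD06 read 6.20 and 5.92. These strains were picked as the extremes of the mean of the same arrays, so their order on both treatments is a description only. BXD02, BXD15, BXD22 and BXD28 had their arrays furthest apart, by 0.32 to 0.36 in size, and without any 1 of these 4 strains the Kcnn1 strain effect passed (adjusted p from 0.0382 to 0.0427). It passed in 7 of 34 alternatives in all, with adjusted p from 0.0375 to 0.126.

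The Kcnn1 probe sets ranked the strains alike. Over the 27 strain means 1449536_at and 1419617_at had r = 0.73 (permutation p = 3e-05, adjusted over 11 probe set pairs p = 0.00033) and rho = 0.71 (adjusted p = 0.0011). Without the 2 strains furthest from the median of 1449536_at r was 0.69. Both probe sets share the same 54 arrays. The Kcnma1 probe sets formed no such block. Their brightest, 1425987_a_at, had r from 0.03 to 0.19 with the others, while 1424848_at and 1440728_at had r = 0.62 (adjusted p = 0.00407; 0.43 without the 2 furthest strains) and 1428948_at and the dim 1457018_at had r = 0.59 (adjusted p = 0.00407; 0.52 without them). In 1424848_at and 1428948_at r was 0.49 (adjusted p = 0.0293), which fell to 0.26 without the 2 furthest strains and so rested on those. A Kcnma1 result from 1 probe set therefore does not stand for the others.

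**Figure D3:**
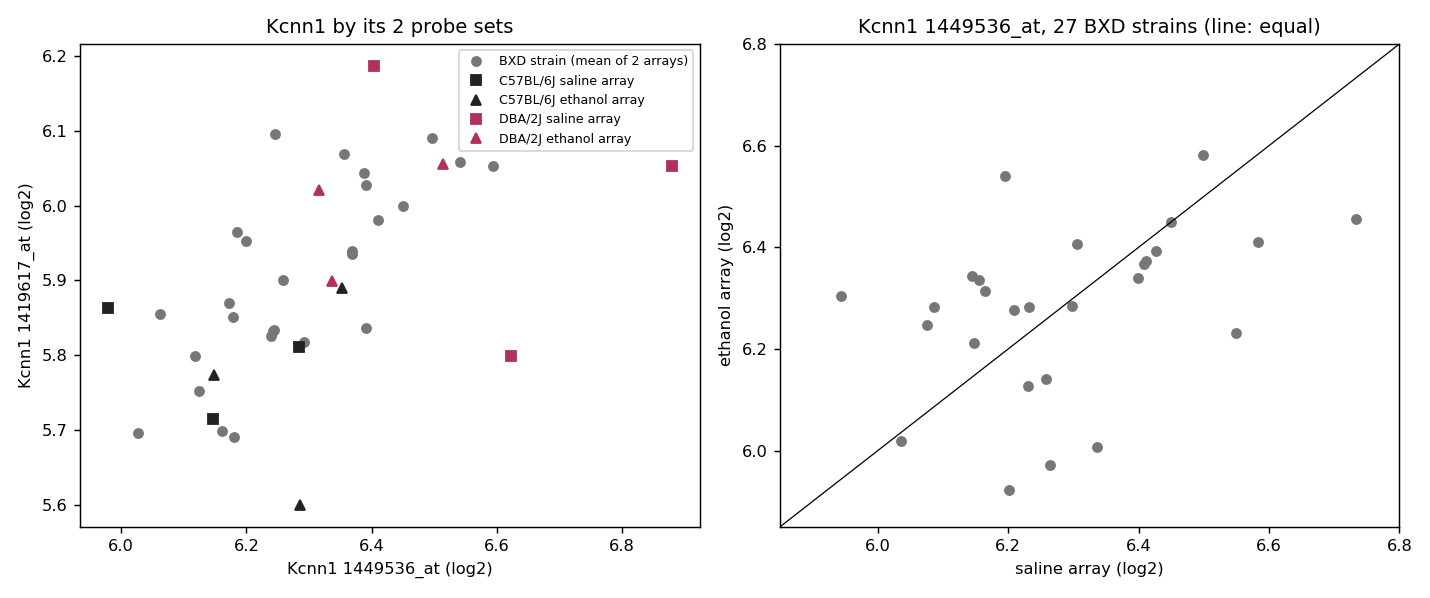
Left, Kcnn1 log2 level by 1449536_at (x axis) against 1419617_at (y axis), with a grey circle for the mean of a BXD strain's 2 arrays and squares (saline) or triangles (ethanol) for progenitor arrays. Right, the ethanol array (y axis) against the saline array (x axis) of each of the 27 BXD strains by 1449536_at, with the line of equality. The probe sets rise together across strains (r = 0.73), DBA/2J arrays lie to the upper right of most C57BL/6J arrays, and strains scatter about the line with an intraclass correlation of 0.39.

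Some genes next to Kcnn1 on chromosome 8 ranked the strains as it did or in the opposite order. A BXD strain carries a mosaic of C57BL/6J and DBA/2J chromosome segments, so genes that lie close together usually come from the same progenitor; genotypes of the strains were not used here. By gene order on GRCm38.p6, the 15 nearest tested genes on each side were taken and compared with Kcnn1 over the 27 strain means, as a description with no test, since the points share arrays. By 1449536_at 11 of 30 neighbours (36.7%) had r beyond 0.5 in size, 7 of them positive and 4 negative, against 1.84% of 13129 genes. The other 19 lay between these bounds, such as Map1s (0.04) and Ano8 (-0.03). By 1419617_at it was 14 of 30 (46.7%) against 4.02%. Of the 20 genes most like Kcnn1 1449536_at on the array, 5 were among these 30 neighbours, and of the 20 most like 1419617_at 1 was.

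The direction among the neighbours differed from gene to gene. The highest by 1449536_at were Pik3r2, a regulatory subunit of phosphoinositide 3-kinase (r = 0.77), Ssbp4 (0.73) and Gtpbp3 (0.69). The lowest were Slc5a5, the sodium iodide symporter gene (-0.69), and Tmem59l (-0.56). The progenitor arrays did not enter these correlations, and their mean differences are counted here by sign alone, with no test. All 7 neighbours with r above 0.5 had a higher mean in saline DBA/2J, where Kcnn1 was also higher, and all 4 with r below -0.5 had a lower mean. Examples are Ssbp4 (8.96 in C57BL/6J and 9.77 in DBA/2J), Plvap (7.03 and 7.87), Ocel1 (5.06 and 6.08) and, in the other direction, Slc5a5 (7.31 and 6.22). The smallest of these 11 was Lsm4, with means of 9.16 and 9.15. Of the 19 neighbours between these bounds 14 were higher in DBA/2J, and 55.4% of all tested probe sets were. By 1419617_at the counts were 12 of 12 higher and 1 of 2 lower, the exception being Myo9b (7.49 and 7.58). Of the 16 neighbours between the bounds by that probe set, 8 were higher.

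For the other members the share of such neighbours was closer to that of all genes. For Kcnma1 1425987_a_at on chromosome 14 it was 1 of 30 neighbours (3.33%) against 1.95% of all genes. For Kcnmb4 on chromosome 10 it was 3 of 30 (10.0%) against 7.38%, and for Kcnn3 on chromosome 3 it was 0 of 30 against 4.39%. For Kcnn2 it was also 0 of 30, against 0.746%.

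**Figure D4:**
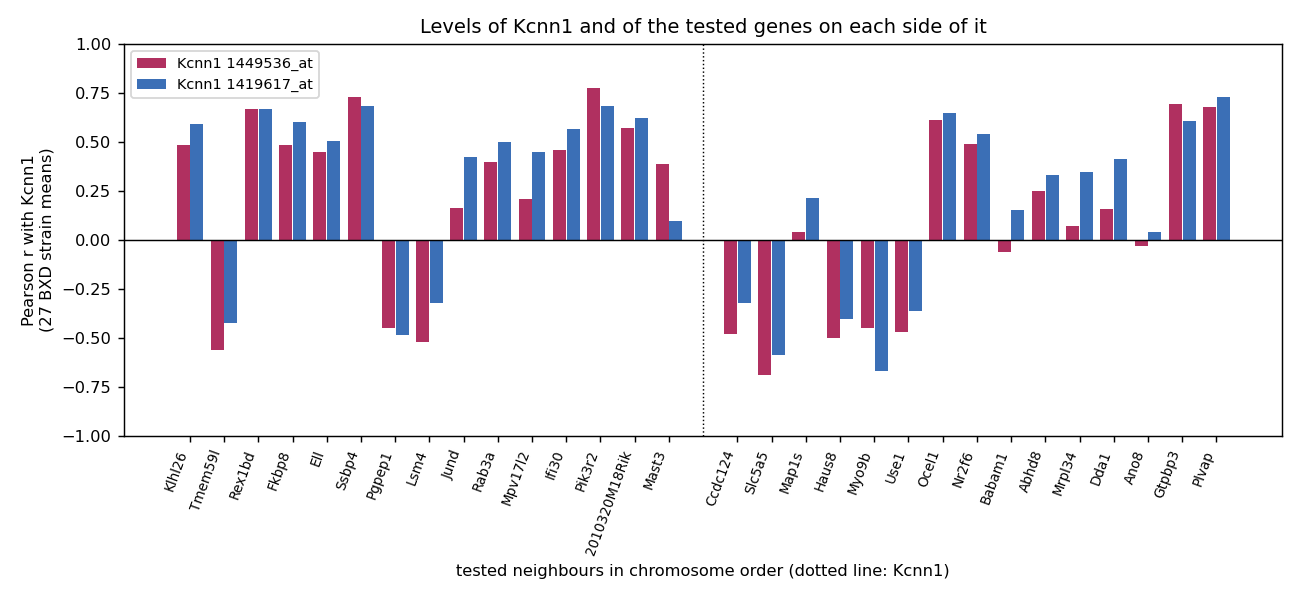
Pearson correlation over 27 BXD strain means (y axis) between Kcnn1, by each of its probe sets, and the 15 nearest tested genes on each side, in chromosome order (x axis, Kcnn1 at the dotted line). Bars reach 0.77 for Pik3r2 and -0.69 for Slc5a5, and the bars of the 2 probe sets mostly point the same way.

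The genes most like each member across the 27 strain means were named by a rule that took the 2 highest correlations with the gene's brightest probe set. For Kcnn1 they were Pik3r2 (r = 0.77) and Gatad2a (r = 0.73), both on chromosome 8, with 3 and 47 protein-coding genes between them and Kcnn1. Both were higher in saline DBA/2J, by 0.31 and 0.25. For Kcnma1 they were Map7 (0.83) and Ppp3r1, a regulatory subunit of calcineurin (0.78). For Kcnmb4 they were Gng13, a G protein gamma subunit (0.83), and Tor2a (0.79). For Kcnn2 they were Rnf121 (0.67) and Tmed8 (0.65), and for Kcnn3 they were P2rx6, a subunit of ATP-gated channels (0.69), and Fam131c (0.69). These 8 genes lay on other chromosomes than the member. The 95th percentile of the size of r over all genes was 0.44 for Kcnma1, 0.54 for Kcnmb4, 0.42 for Kcnn1, 0.39 for Kcnn2 and 0.49 for Kcnn3, and the named genes are the extremes of 13191.

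Of the 10 pairs of member genes, by their brightest probe sets, 0 passed an adjusted permutation p of 0.05 over the 27 strain means. The pore gene Kcnma1 and its partner Kcnmb4 had r = -0.26 (permutation p = 0.185, adjusted p = 0.458) and rho = -0.21. In the saline arrays alone that r was -0.52 (adjusted permutation p = 0.0513), and in the ethanol arrays alone it was -0.12 (adjusted p = 0.607). Kcnma1 with Kcnn2 turned from r = 0.24 over the strain means to -0.18 in the saline arrays alone. The largest in size was Kcnn2 with Kcnn3, at r = -0.41 (p = 0.0334, adjusted p = 0.334), rho = -0.42 and r = -0.48 without the 2 furthest strains. Over 3 alternatives the r of that pair ran from -0.41 to -0.10 (adjusted permutation p from 0.322 to 0.72). Kcnn1 with Kcnn2 had r = -0.11 and Kcnn1 with Kcnn3 had r = -0.02.

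Some member levels moved with properties of the arrays or with marker lists. The 10 member probe sets were each compared over the 27 saline BXD arrays with the array SD and with 10 marker list means, which made 110 relations. The 2 furthest arrays were chosen by that array SD or list mean, not by the member's level. Kcnma1 1428948_at rose with array SD at r = 0.84 and rho = 0.90 (each with the smallest permutation p that 100000 resamples can give, 1e-05; adjusted p = 0.0011), and r was 0.82 without the 2 furthest arrays. In the ethanol arrays it was r = 0.70 and rho = 0.79 (adjusted p = 0.0066 and 0.0011). With array SD in the model its strain intraclass correlation was 0.07 in place of 0.30, and its saline DBA/2J minus C57BL/6J difference was 0.37 (limma adjusted p = 0.0318) in place of 0.03. The dim Kcnma1 1457018_at also rose with array SD after saline, at r = 0.74 (0.65 without the 2 furthest arrays) and rho = 0.69 (adjusted p = 0.0011 and 0.00733). After ethanol its r was 0.38 (adjusted p = 0.453). Kcnn1 1449536_at had r = 0.09 with array SD after saline and 0.12 after ethanol, and its intraclass correlation was 0.38 with array SD in the model.

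Kcnmb4 moved with the 6 tested striatal markers, which include the dopamine receptor genes Drd1 and Drd2 and the neuropeptide genes Penk and Tac1. In the saline BXD arrays r was 0.58 (permutation p = 0.00115, adjusted p = 0.0335) and rho was 0.66 (adjusted p = 0.00733), with r = 0.61 without the 2 furthest arrays. In the ethanol arrays r was 0.58 and rho 0.52, which did not pass over 110 relations (adjusted p = 0.0841 and 0.198). The striatal list mean ran from 7.42 to 7.97 in the saline and from 7.38 to 7.75 in the ethanol BXD arrays. Kcnma1 1425987_a_at went the other way with this list after saline, at r = -0.53 and rho = -0.57. These did not pass (adjusted permutation p = 0.0608 and 0.0519), and after ethanol its r was -0.33 (adjusted p = 0.563). Kcnn1 1419617_at had r = 0.59 with the inhibitory neuron list after saline (adjusted p = 0.0335), but its rho of 0.49 did not pass (adjusted p = 0.107), nor did r = 0.42 after ethanol (adjusted p = 0.390). Kcnma1 1428948_at had r = 0.57 with the excitatory list after saline (adjusted p = 0.0429) and 0.36 after ethanol (adjusted p = 0.486). Kcnma1 1440728_at had r = 0.57 with the microglia list after saline (adjusted p = 0.0456), which fell to 0.27 without the 2 furthest arrays and so rested on those. The part of tissue composition in the levels of these genes was not tested.

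**Figure D5:**
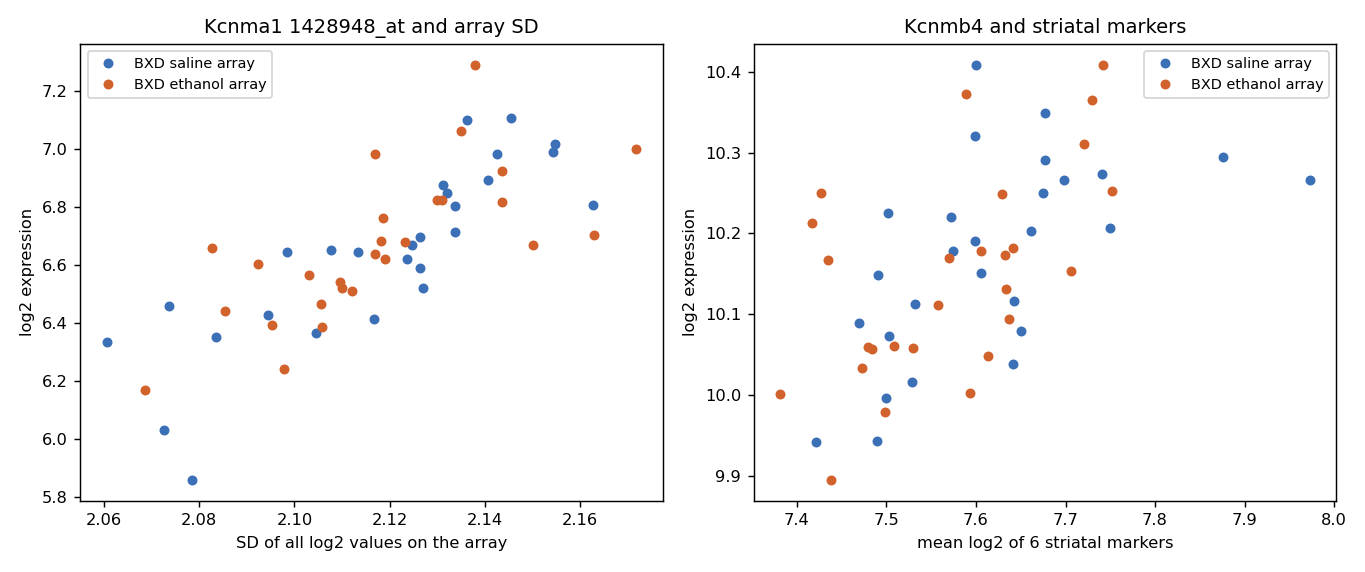
Left, Kcnma1 1428948_at log2 level (y axis) against the SD of all log2 values on the array (x axis). Right, Kcnmb4 log2 level (y axis) against the mean log2 of 6 striatal markers (x axis). Each point is 1 of the 27 saline (blue) or 27 ethanol (orange) BXD arrays. Both rise from left to right, with r = 0.84 (saline) and 0.70 (ethanol) on the left and 0.58 in each treatment on the right.

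Of the partner list 2 of 27 genes showed strain effects in the panel, where 18% of all tested genes did, each by its brightest probe set. They were Actn2, an anchoring protein of the cytoskeleton that is known to bind SK2 (intraclass correlation 0.65, limma adjusted p = 0.000796), and Lrrc38, a BK gamma-type auxiliary subunit (0.50, adjusted p = 0.0210). The median intraclass correlation of the list was 0.09, against 0.18 for all tested genes by their brightest probe set.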

How the data were processed

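Total RNA of medial prefrontal cortex was measured on 66 Affymetrix mouse arrays. The deposited values are log2 expression levels, which the authors obtained by RMA in affy, as the submitters' processing notes name them. Neither their versions nor a genome build is given in the sources used here. Because RMA corrects background, equalises array distributions and combines the probes of a set, levels are relative. Probe sequences and array batches were not used here.

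The platform annotation gave 34945 probe sets 1 symbol, 932 several and 9160 none; 34741 symbols were brought up to date by Entrez identifier from RefSeq tables of GRCm38.p6, which also gave gene order and the printed promoters. Members were matched by exact symbol. Differences were fitted with limma 3.58.1 in R 4.3.3 (lmFit, eBayes, two-sided) on the 27022 probe sets at or above the 40th percentile, read with the data.table package (version 1.17.8), with Benjamini-Hochberg adjustment over all of them at 0.05. The BXD ethanol effect used 54 arrays with strain as a block (26 residual degrees of freedom), since strain in the labels pairs the arrays; the progenitor comparisons used 12 arrays (8 residual degrees of freedom). Replicate numbers of the progenitors did not pair the arrays. Correlations used 100000 permutations, two-sided. The fits were tested on simulated data. For arrays, their number limits the precision.

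The named genes were all member probe sets, the 2 most alike genes per member, partner and marker genes past the threshold, and neighbours or markers given beside a result, some of them chosen after their values were seen. The members, the partner and marker lists and the tests were chosen with earlier results of these data known. Alternatives covered the filter, 1 probe set per gene, array scaling, the prior, array weights, a joint fit, the block, leaving out each array or strain, correlations from 1 treatment's arrays, and array SD as a covariate. The last, the neighbours of the second Kcnn1 probe set and the ethanol arrays in the marker correlations were added after the data were seen.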

Additional observations from a re-analysis of the deposited data

How the results depend on the processing

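None of the 1085 alternative fits of a member ethanol effect passed (lowest limma adjusted p 0.208), and no called result reversed. Some of these fits left out an array that does not enter the difference, so they are near copies and the count is not one of separate checks. For saline DBA/2J minus C57BL/6J the count of members called was 1 in the main setting and 0 with a 60th percentile filter, which removes Kcnn1 and leaves 5 members; leaving out arrays gave 0 to 1. With array SD as a covariate it was again 1, but the call was Kcnma1 1428948_at and not Kcnn1. For ethanol DBA/2J minus C57BL/6J, leaving out arrays gave 0 to 1. For the BXD strain effect the count of 0 became 1 with no filter (the dim Kcnma1 1457018_at, adjusted p 0.0465, which also rose with array SD), 1 with the brightest probe set per gene, 1 with median-centred arrays and 1 with quantile normalization repeated (each Kcnn1 1449536_at, adjusted p 0.0428, 0.0375 and 0.0417), 1 with array weights (Kcnma1 1428948_at, 0.0295), and 0 to 1 on leaving out a strain, where omitting BXD20 also called Kcnma1 1428948_at (0.0138). The cause was not tested.

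Replicate numbers of the progenitor groups did not pair the arrays: same-numbered arrays of different groups had a median correlation of deviations of -0.04, from -0.35 to 0.23. With the replicate block the saline progenitor comparison still called 1 member, Kcnn1 (adjusted p 0.0188), and 2054 probe sets in all against 2451; the other progenitor comparisons called 0 members.

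Counts over all probe sets moved by more than 1.5 times in these settings. The brightest probe set per gene, with 13196 tests in place of 27022, called 1365 after saline (2451 in the main setting) and 954 after ethanol (1816). For the BXD strain effect it called 2688 (4727). The number of tests fell by more than these counts did, so they do not show rarer calling. Array SD as a covariate called 1618 after saline. The small ethanol counts ranged from 1 to 7 in the BXD panel (main 2), 0 to 2 in C57BL/6J (main 2), 0 to 35 in DBA/2J (main 0, 35 with all arrays in 1 fit) and 1 to 6 for their mean (main 5). With 3 arrays a group, SEs of a member's ethanol or strain difference ran up to 0.23. In simulated data, 65% and 69% of ethanol differences of 0.5 were recovered in DBA/2J and C57BL/6J, as averages over many probe sets changed at once and not for a single member.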
